A study of Mus musculus with 6 samples.

Results

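The 10 genes described here encode the odor transduction machinery of the olfactory sensory neuron (OSN) and were taken by symbol: Gnal, Gng13, Adcy3, Cnga2, Cnga4, Cngb1, Ano2, Ric8b, Pde1c and Omp, of 24564 genes in the files. They were followed over gated cell types, along the neuron lineage, and in mature OSNs whose top Olfr gene was class I against the other mature OSNs, in all 6 libraries. Each library is droplet single-cell RNA-seq of mouse main olfactory epithelium. The tetOP2 library carried gg8-tTA and tetOP2iresGFP, and the gg8tTA control carried gg8-tTA alone. In both, the Gng8 promoter drives the transactivator in immature neurons. The 2 swap libraries carried Cbx*/* with Cre, so that Cbx1, which encodes HP1β, is replaced by Cbx5, which encodes HP1α, in cells where Cre has acted. Control 1 was wild type with the same Cre, and control 2 carried Cbx*/* with no Cre. The controls thus differ from each other, since control 1 lacks the Cbx*/* allele and control 2 lacks Cre. Age is not given in the sources used here. The study's methods call the replicates biological but do not say which mice each library came from, and p-values rest on the spread between these libraries. In the edgeR tests this spread is pooled in part over genes, so a p-value is not set by a gene's own libraries alone.

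The libraries held 32005196 to 63277934 unique molecular identifiers (UMIs, each counting 1 captured RNA molecule) and, after filtering, 2563 to 5091 cells with medians of 9991 to 11543 UMIs. Any pair of libraries shared 0 to 20 cell barcodes. Although each library is labelled OSN, mature OSNs made up 14.2 to 28.4% of cells, and markers of supporting, basal, glial, stromal and immune cells were present in all. In mature OSNs Cbx1 was at 0.93 and 3.16 CPM (UMIs of the gene relative to all UMIs of the same cells) in the swap libraries against 79.4 and 154.7 CPM in the controls, which matches the labels. Olfr17, the receptor behind the tetOP2 construct, had UMIs in 81.4% of mature OSNs of the tetOP2 library and in at most 0.58% in the others. The libraries also differed in Xist, at 1195 to 1351 CPM in tetOP2, gg8tTA control and swap 1 and at most 0.07 CPM in the rest. The swap pair thus held 1 library with Xist and 1 without it, and the controls held 2 without it, and its part in the swap comparison was not tested. The gg8tTA control and tetOP2 libraries carried more OSN RNA in other cell types: Omp stood at 115.5 and 132.7 CPM in their sustentacular cells and at 14.1 to 44.5 CPM in those of the other 4 libraries.

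In an OSN, an odorant bound to its receptor in the ciliary membrane activates the G protein Gαolf, which stimulates adenylyl cyclase type 3. The cAMP it makes opens a cyclic nucleotide-gated channel, calcium enters, and a calcium-activated chloride channel adds to the depolarization. Phosphodiesterases and calmodulin then turn the signal off. Gnal encodes Gαolf, Gng13 the G protein γ13 subunit, and Ric8b a chaperone and exchange factor of Gαolf. Adcy3 encodes the cyclase, Cnga2, Cnga4 and Cngb1 the channel subunits, and Ano2 the chloride channel. Pde1c encodes a calcium/calmodulin-dependent phosphodiesterase of the cilia, and Omp the olfactory marker protein, the usual marker of mature OSNs.

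Upstream sequence was searched for the core of the Olf-1/EBF site, a motif known from promoters of olfactory genes. The reason was that all 10 genes rose from early immature to mature OSNs, though not in step. RefSeq promoter windows (build GRCm38.p6, which is mm10) were found for 8 of the 10 genes, all but Gnal and Omp. The letters CCCNNGGG, which read the same on both strands, occurred in the 250 bases before a start site of 4 of these 8 genes (Gng13, Cnga2, Cngb1 and Ano2), and in 13.4% of all 27025 genes. A longer form of the site, with 1 more base fixed at each end, was in 0 of the 8 and in 0.914% of all genes. The homeodomain letters TAATTA were in 0 of the 8 and 5.65% of all genes. A window holding the letters is shown for the main channel subunit, for the G protein subunit and for the modulatory channel subunit, each of 150 bases upstream of the start of transcription, 5′ to 3′, with the match in capitals. Cnga2 lies at chrX:71991849-72010218, and its window spans chrX:71991674-71991823 on the plus strand. Gng13 lies at chr17:25717172-25719102, and its window spans chr17:25716997-25717146 on the plus strand, with 2 overlapping matches. Cngb1 lies at chr8:95239043-95306585, and its window spans chr8:95306611-95306760 on the minus strand.
Cnga2: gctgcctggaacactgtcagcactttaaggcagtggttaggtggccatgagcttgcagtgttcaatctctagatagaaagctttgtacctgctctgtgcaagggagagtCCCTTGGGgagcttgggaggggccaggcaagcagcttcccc
Gng13: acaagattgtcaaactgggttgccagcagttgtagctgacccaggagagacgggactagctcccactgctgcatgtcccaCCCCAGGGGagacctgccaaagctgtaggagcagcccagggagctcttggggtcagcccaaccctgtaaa
Cngb1: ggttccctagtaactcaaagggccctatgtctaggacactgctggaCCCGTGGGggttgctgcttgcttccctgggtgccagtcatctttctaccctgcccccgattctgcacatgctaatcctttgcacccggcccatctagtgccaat
These letters sit 66 to 59 bases before the start in Cnga2, 95 to 87 in Gng13 and 129 to 122 in Cngb1. A match is a description of the sequence, and binding was not measured here.

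The level of each gene was summed over the cells of a gated type in each library and given as CPM. All 10 genes had their highest mean level in mature OSNs, with late immature OSNs next for 9 of them, and 9 of 10 were at most 4.28% of the mature level in every non-neuronal or precursor type held by all 6 libraries. Pde1c was the exception among these types. Endothelial cells, 13 to 35 a library, were too few for this set. They had Cngb1 at 10.4 to 20.9 CPM, on 1 to 6 UMIs a library, against 1.61 to 3.75 CPM in sustentacular cells. Levels are compared between cell types and not between genes, since 3′ counting does not give a level per length. None of the 10 genes was used in the gates behind these levels.

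The G protein subunits were abundant in mature OSNs. Gnal stood at 1698.5 CPM in tetOP2, 1653.7 in gg8tTA control, 2073.3 in swap 1, 2017.8 in control 1, 2998.8 in swap 2 and 3418.5 in control 2. The second swap and control libraries were the highest and the gg8-tTA pair the lowest. Gng13 stood at 11940.5, 10320.0, 5806.6, 8211.9, 7109.9 and 6962.4 CPM in the same order, so here the gg8-tTA pair was highest. Ric8b had 501.8, 415.0, 406.8, 455.7, 658.6 and 702.3 CPM, again highest in swap 2 and control 2.

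Adcy3, the cyclase, had 740.6, 751.5, 509.8, 547.2, 744.5 and 797.4 CPM in mature OSNs, with swap 1 and control 1 below the other 4 libraries. Cnga2, the main channel subunit, had 860.3, 826.6, 505.0, 513.9, 665.3 and 643.7 CPM in the same order of libraries. The gg8-tTA pair was above the others for Cnga2 and also for Cnga4, whose values were 330.3, 343.5, 244.6, 242.2, 231.9 and 245.4 CPM. Cngb1 had 178.1, 165.3, 129.5, 136.1, 180.0 and 214.5 CPM. Ano2, the chloride channel, was the most even of the 10 genes, at 202.6, 195.9, 199.6, 203.2, 209.2 and 224.5 CPM, or 206 ± 10.2 (SD, n = 6 libraries). Omp was the most uneven, at 9352.1, 8342.9, 2926.1, 2398.4, 3398.8 and 3921.4 CPM, with the gg8-tTA pair above the other libraries. The gg8-tTA pair is another line with more free OSN RNA. Of its barcodes 100% passed the cell filter, against 57.5 to 92.5% in the other 4 libraries. It shared 0 or 1 barcodes with each of those, which shared 7 to 20 with each other. These differences cannot be told apart here.

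**Figure D1:**
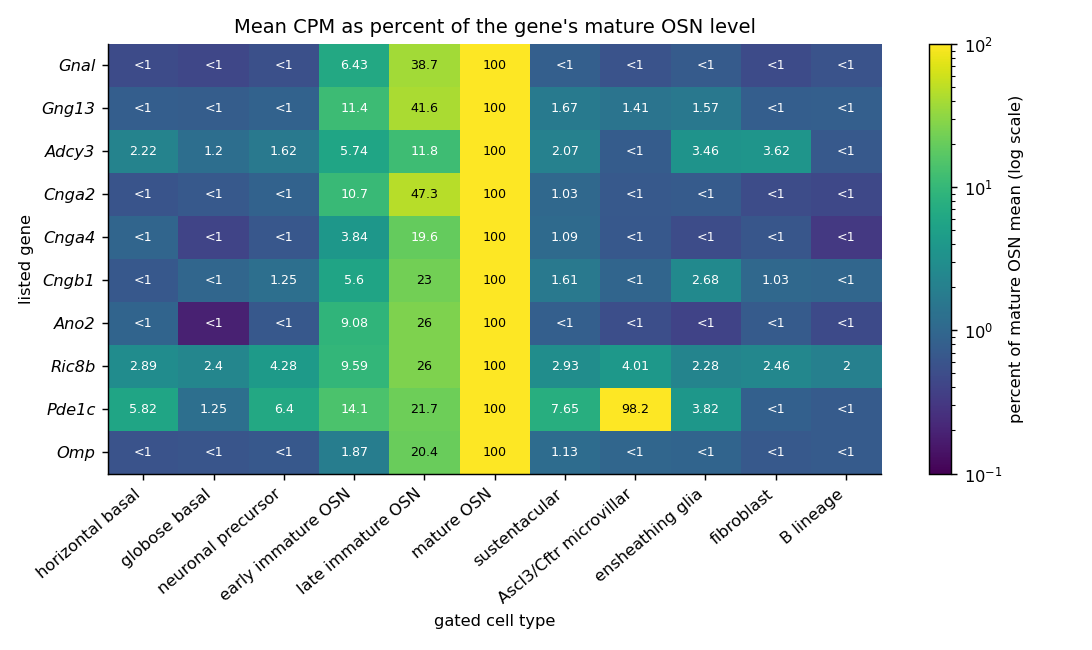
Heat map of the mean CPM of each listed gene (rows) in each gated cell type held by all 6 libraries (columns), as a percent of the gene's mean in mature OSNs, on a log colour scale. Mature OSNs are at 100 for each gene, late immature OSNs at 11.8 to 47.3, and the Ascl3/Cftr microvillar cells stand out for Pde1c alone, at 98.2.

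After each cell was thinned to 3000 UMIs, leaving out 0 to 52 shallower mature and 0 to 148 sustentacular cells a library, the median share of mature OSNs with a UMI ran from 39.0% for Cngb1 and 42.4% for Ano2 to 98.8% for Gnal, 99.5% for Omp and 99.5% for Gng13. Sustentacular cells served as the background for free RNA, with shares of 0.0 to 7.36% for 7 genes and up to 51.2% for Gng13 and 34.7% for Omp. For Pde1c they are no clear background, since its share of 2.76 to 10.1% went with CPM that were lowest in the gg8-tTA pair (13.1 and 14.5) and above those of fibroblasts (0 to 6.43) and globose basal cells (1.80 to 5.52) in each library. The highest background shares for these 2 genes came from the gg8-tTA pair. Without thinning, 69.4 to 87.4% of mature OSNs had a Cngb1 UMI and 97.4 to 99.9% a Gnal UMI. A mature OSN held UMIs of 6.69 to 7.48 of the 10 genes on average over the libraries, a late immature OSN of 3.27 to 4.11, an early immature OSN of 1.69 to 1.94 and a sustentacular cell of 0.33 to 1.10. Among mature OSNs of a library, the median correlation over libraries between a pair of the genes ran from 0.06 for Cngb1 with Pde1c to 0.35 for Gng13 with Omp, over 581 to 1179 cells that share library and depth. The libraries differed widely for the abundant genes. Gng13 with Omp was at 0.70 in tetOP2, 0.85 in gg8tTA control and 0.47 in swap 1, and at 0.17 to 0.24 in the other 3. Gnal with Gng13 ran from 0.59 in gg8tTA control to -0.10 in swap 2 and control 2.

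The levels of Pde1c in Ascl3/Cftr microvillar cells overlapped those in mature OSNs. These non-neuronal cells, gated by Ascl3, Cftr, Foxi1 and Coch, had 231.1 CPM in tetOP2, 197.4 in gg8tTA control, 255.8 in swap 1, 276.1 in control 1, 362.8 in swap 2 and 387.1 in control 2, a mean of 285 ± 74.8 (SD, n = 6). The mature OSN values were 262.5, 217.5, 312.6, 275.2, 291.7 and 382.1 CPM in the same order, so the ranges overlap and the difference lies within the spread. Sustentacular cells had 13.1 to 30.6 CPM, below every microvillar value. Over the libraries 331 of 397 Ascl3/Cftr cells held a Pde1c UMI, a share of 83.4% (exact binomial 95% interval 79.3 to 86.9, counting error only). At 3000 UMIs per cell, 32.7 to 67.7% of these cells had one against 2.76 to 10.1% of sustentacular cells. Median depths before thinning were 6554 to 10325 UMIs in the Ascl3/Cftr cells and 11590 to 16340 UMIs in the sustentacular cells, of which 15.0 to 31.6% then had a Pde1c UMI. The other 9 genes were at most 4.01% of their mature level in the Ascl3/Cftr cells.

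Gng13 was found at a high level in Trpm5 microvillar cells, chemosensory cells that resemble tuft cells. Its level there was 2047.6, 2345.6, 1904.8, 1883.3, 1467.4 and 1859.5 CPM in the 6 libraries, in the order given above, from 5 to 22 cells each. All 6 values lie below the mature and late immature levels of Gng13 in the same library and above its sustentacular levels of 49.1 to 243.8 CPM. Of 67 such cells 66 held a Gng13 UMI, or 98.5% (lower exact binomial 95% limit 92.0%). Unthinned, 31.4 to 92.3% of the deeper sustentacular cells held one too, so the level rather than this share sets the Trpm5 cells apart. Gnat3, which encodes the taste G protein subunit gustducin, had a UMI in 29 of the 67 and was at 0 CPM in mature OSNs in every library. Gnal stood at 0 to 93.8 CPM in the Trpm5 cells, and Cnga2 had no UMI there in 4 of 6 libraries. Pde1c had a UMI in 11 of the 67 cells and stood at 77.3 CPM in tetOP2, 0 in gg8tTA control, 81.1 in swap 1, 87.6 in control 1, 36.1 in swap 2 and 13.6 in control 2. In control 1, where Pde1c was highest, the value rested on 6 UMIs. Its exact Poisson 95% interval there, 32.1 to 190.7 CPM, lay above the 19.1 CPM of sustentacular cells. The few cells in each library set the precision of these values.

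**Figure D2:**
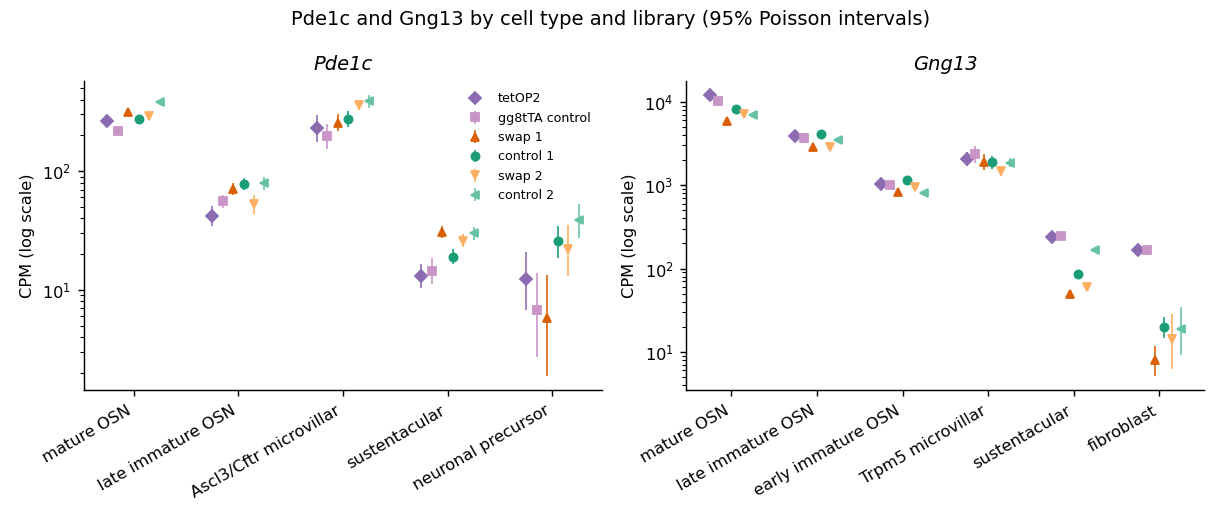
CPM (log scale) of Pde1c (left) and Gng13 (right) in gated cell types, each point 1 library with its exact 95% Poisson interval for counting error. The 6 Ascl3/Cftr microvillar points for Pde1c lie at 197.4 to 387.1 CPM beside the mature OSN points, and the Trpm5 microvillar points for Gng13 lie at 1467.4 to 2345.6 CPM.

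The first lineage question was how the genes differ between mature and late immature OSNs. Stages were set by marker genes outside the list: a mature OSN had more UMIs of Stoml3, Rtp1, Umodl1, Carns1 and Slc17a6 than of Gap43 and Gng8, and a late immature OSN had both kinds with the immature ones prevailing. All 10 genes were called higher in mature OSNs by edgeR's quasi-likelihood test with library as a block, and each was higher in 6 of 6 libraries. To be called, a gene had to pass both a Benjamini-Hochberg threshold of 0.05 and a change of more than 0.58 on the log2 scale. Of 13148 genes tested 28.2% were called, 14.9% higher and 13.3% lower, and the median log2 fold change was 2.16 over the 10 genes and 0.02 over all genes.

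Adcy3 rose most between these stages. Its late immature level was 94.0, 102.4, 75.6, 78.9, 61.5 and 70.9 CPM in the 6 libraries, and no late value came near the lowest mature one of 509.8 CPM. The log2 fold change was 3.21 ± 0.14 (SE; edgeR adjusted p = 4.9e-06). Cnga4, which tunes the channel's response to calmodulin, rose by 2.50 ± 0.17 from late levels of 27.0 to 69.8 CPM. Pde1c rose by 2.35 ± 0.11, Omp by 2.35 ± 0.13, Cngb1 by 2.24 ± 0.13, Ano2 by 2.09 ± 0.11 and Ric8b by 2.07 ± 0.13. The smallest rises were those of Gnal (1.56 ± 0.10), Gng13 (1.39 ± 0.10) and Cnga2 (1.22 ± 0.09, edgeR adjusted p = 2.5e-05). For Cnga2 the late levels were 400.4, 387.3, 275.0, 297.7, 259.9 and 277.1 CPM, so the highest late value lies below the lowest mature value of 505.0 CPM.

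Between late and early immature OSNs the order of the genes was different. All 10 were again called higher in the later stage, with 24.3% of 11894 genes called, 13.4% higher and 10.9% lower. The median log2 fold change was 1.91 over the 10 genes and -0.02 over all genes. Omp rose by 3.44 ± 0.10 (edgeR adjusted p = 6.6e-08) from 152.3, 166.6, 79.3, 59.9, 58.8 and 50.5 CPM in the early stage. Gnal rose by 2.53 ± 0.07 from 80.7, 92.4, 167.3, 169.0, 190.7 and 190.6 CPM. The gg8-tTA pair was lowest for Gnal and highest for Omp at this stage, as among mature OSNs.

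The channel subunits Cnga4 (2.32 ± 0.12), Cnga2 (2.07 ± 0.12) and Cngb1 (2.00 ± 0.11) rose by similar amounts from early to late. Gng13 rose by 1.82 ± 0.06, Ano2 by 1.48 ± 0.11, Ric8b by 1.40 ± 0.07 and Adcy3 by 1.02 ± 0.10. Pde1c moved least, by 0.61 ± 0.12 (edgeR adjusted p = 0.0021), and was higher in the late stage in 5 of 6 libraries. Its early values were 23.3, 27.7, 40.1, 46.7, 52.8 and 54.7 CPM and its late values 41.9, 55.8, 71.0, 77.7, 52.4 and 79.2 CPM, so the stages overlap across libraries and swap 2 did not rise. The Pde1c call was lost without gg8tTA control (0.57), without swap 1 (0.56) and in the swap and control libraries alone (0.53), where the change fell under the fold threshold.

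**Figure D3:**
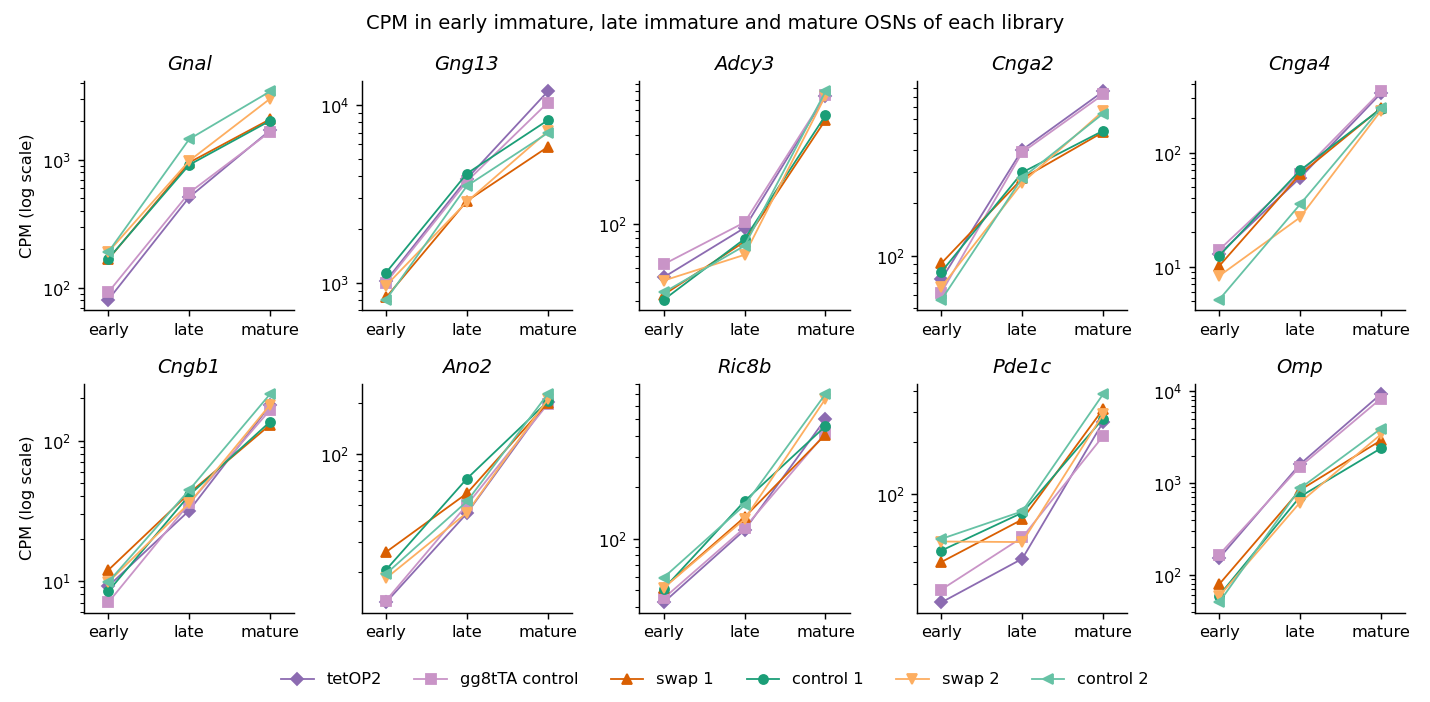
CPM (log scale, each panel with its own range) of the 10 listed genes in early immature, late immature and mature OSNs, with 1 line per library. Each line rises from late to mature in each panel, while for Pde1c the line of swap 2 is level from early (52.8 CPM) to late (52.4 CPM).

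The rise from early immature to mature OSNs was 5.53- to 11.3-fold for Pde1c and 36.9- to 77.7-fold for Omp, the range over libraries in each case. The share of this rise, on the log2 scale, that lay before the late immature stage separated the genes. It averaged 66.6 ± 4.4% for Cnga2, 64.9 ± 4.8% for Gnal, 61.6 ± 4.9% for Omp and 60.3 ± 6.2% for Gng13 (SD, n = 6 libraries). It averaged 25.4 ± 6.7% for Adcy3 and 22.2 ± 12.1% for Pde1c, and for both it was lower in each library than for any of the first 4 genes, whose lowest value was 53.9%. Cnga4, Cngb1, Ano2 and Ric8b fell between, at means of 43.0 to 49.5%. No test was made of the order between genes, and the early Omp level behind its rise was not corrected for free RNA.

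OSNs were also ordered by the mature share of their marker UMIs, in 6 bins after the neuronal precursors. At a mature share of 20 to 50%, Gnal stood at 42.2 to 58.5% of its level in the last bin of the same library, Gng13 at 44.0 to 73.0% and Cnga2 at 48.2 to 59.1%. Adcy3 was then at 9.6 to 13.6%, below every library's value for any other listed gene in that bin. In the next bin, at 50 to 80%, Adcy3 had reached 22.5 to 33.1% and Omp 62.5 to 66.3%.

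The G protein and main channel genes thus stood higher, relative to their final level, than the cyclase in the same cells. Gnal and Gng13 first passed 50% of their last level in the 20 to 50% bin in 4 libraries and a bin later in the gg8-tTA pair, and Cnga2 did so in that bin in 5 libraries. Omp passed 50% in the 50 to 80% bin in all 6 libraries, and Adcy3 and Ano2 in the 80 to 95% bin in all 6. The CPM of Adcy3 rose from 86.4 to 128.3 in the 20 to 50% bin to 714.4 to 1130 in the last bin. Each bin held at least 60 cells in every library.

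**Figure D4:**
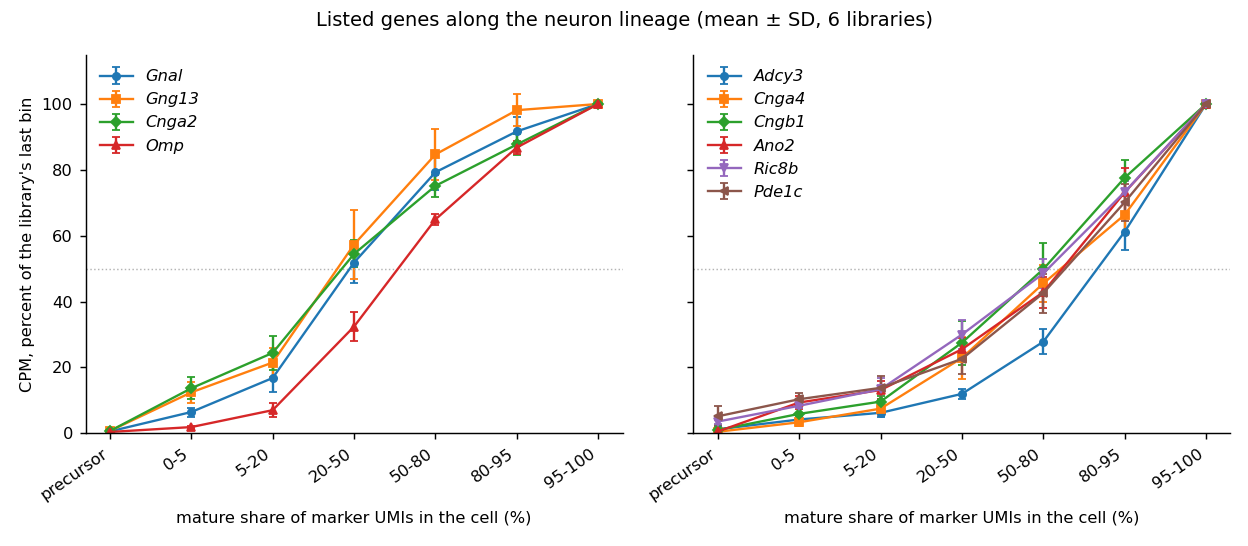
Mean CPM of each listed gene (± SD over 6 libraries) as a percent of its level in the last bin of the same library, along bins of the mature share of marker UMIs in a cell, from neuronal precursors at left. Gnal, Gng13, Cnga2 and Omp (left) lie above the genes in the right panel at 50 to 80%, where Adcy3 is lowest, at 22.5 to 33.1%.

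Other genes of odor transduction and calcium handling, 32 in the list with 31 in the files, were read beside the 10. Of 23 tested between mature and late immature OSNs, 13 were called higher, 3 lower and 7 neither way, with a median log2 fold change of 0.86. Of all 13148 genes tested, 14.9% were called higher and 13.3% lower. Slc8a1, a sodium/calcium exchanger, rose by 2.79 ± 0.16, and Reep1, which aids receptor trafficking, by 1.88 ± 0.13. The calmodulin gene Calm2 rose by 1.13, Cfap69 by 1.52, the phosphodiesterase gene Pde4a by 1.18, Gfy by 0.99, and the receptor transporter gene Rtp2 by 0.98. The 3 that fell were Gnas, Gnai2 and Pde2a, named after their values were seen because they were the ones called lower.

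Gnas encodes Gαs, the stimulatory subunit of most cells, and ran opposite to Gnal. It stood at 1101.6, 979.4, 511.0, 815.2, 466.2 and 582.1 CPM in early immature OSNs and at 64.8, 92.4, 34.9, 109.5, 15.4 and 13.2 CPM in mature OSNs, with no overlap. The log2 fold change was -1.34 ± 0.09 from early to late (edgeR adjusted p = 3.5e-06) and -2.57 ± 0.33 from late to mature (edgeR adjusted p = 0.00038). Sustentacular cells had 672.6 to 1004 CPM of Gnas, above every mature OSN value. Between late and early OSNs 10 of 22 tested pathway genes were called higher and 2 lower, Gnas and Gnai2, with a median of 0.50. Of all 11894 genes tested, 13.4% were called higher and 10.9% lower. The pathway genes called higher included Cfap69 (1.93), Gfy (1.27), Rtp2 (1.17), Reep1 (1.13), Pde4a (0.87) and Gnb1 (0.79), a G protein β subunit.

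Over the 11 cell types present in all libraries, the pattern of Pde1c correlated with that of the other 9 genes at 0.65, that of Adcy3 at 0.90 and those of the rest at 0.976 to 0.987. Among 10704 other genes, those most like the mean pattern of the 10 were Gcnt7 (Pearson r = 0.989), B830017H08Rik, Zfand2a, Faim2, 1700016D06Rik, Dnah11, Nap1l5, Kcnc4, Arhgef33 and Stmnd1 (r = 0.983). The points are 11 type means that share libraries, and the measure is mean log2(CPM + 1).

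Class I receptors are the older, fish-like receptor family, expressed in the dorsal epithelium, and here class I cells were mature OSNs whose top Olfr gene was numbered 543 to 692. They numbered 29 in tetOP2, 68 in gg8tTA control, 69 in swap 1, 114 in control 1, 100 in swap 2 and 111 in control 2, against 455 to 1030 other mature OSNs. The other OSNs of tetOP2 differ in kind, since Olfr17 had UMIs in 81.4% of mature OSNs there. They held 164 different top receptors, against 301 to 508 in the other libraries. The CPM of the classes leave Olfr UMIs out of the totals, so they are not on the same scale as the CPM of all mature OSNs. The log2 differences of the 10 genes between class I and other OSNs lay between -0.30 and 0.00. By edgeR's quasi-likelihood test with library as a block, 0 of 10 were called, where 3.43% of 11292 genes were called, and DESeq2 also called 0 of 10. At an unadjusted p below 0.05, 3 of 10 differed, where 2056 of the 11292 genes did. The same number of listed genes passed the adjusted p without the fold threshold. All 3 were lower in class I, where 7.56% of genes passed and 3.97% passed as lower.

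Cnga4 had 236 CPM in class I against 344 in the other OSNs of tetOP2, 373 against 372 in gg8tTA control, 242 against 252 in swap 1, 169 against 252 in control 1, 208 against 238 in swap 2 and 169 against 259 in control 2. It was lower in 5 of 6 libraries, with the widest gaps in tetOP2 and both controls, at a log2 difference of -0.30 ± 0.07 (edgeR adjusted p = 0.0047). Ano2 had 168 against 210 CPM, 195 against 220, 201 against 205, 169 against 210, 182 against 214 and 159 against 236 in the same order. It was lower in 6 of 6 libraries, by -0.27 ± 0.07 (edgeR adjusted p = 0.0068).

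Gng13 was lower by -0.13 ± 0.03 (edgeR adjusted p = 0.0066), again in 6 of 6 libraries. An exact sign-flip permutation test over the 6 libraries, two-sided, gave p = 0.031 for Gng13 and for Ano2, the smallest it can give, and p = 0.063 for Cnga4. By edgeR, Adcy3 differed by 0.00 ± 0.05, with a 95% interval of -0.11 to 0.11. The 6 genes besides Gng13, Ano2, Cnga4 and Adcy3 differed by -0.12 to -0.05. These differences stand beside those of position and maturity. Nqo1, a marker of dorsal OSNs, had UMIs in 77.0 to 95.6% of class I and 27.9 to 37.4% of other cells. In the most mature bin were 54.4 to 76.0% of class I cells against 46.1 to 73.0% of the others. Within a library the class I share in that bin was the higher, except in tetOP2 (55.2 against 62.1%). Against other OSNs with Nqo1 only, Cnga4 was lower by -0.40 ± 0.07 (edgeR adjusted p = 0.00056), Ano2 by -0.10 ± 0.07 (edgeR adjusted p = 0.56) and Gng13 by -0.10 ± 0.03 (edgeR adjusted p = 0.083). Among the most mature OSNs alone, an alternative chosen after seeing the data, Gng13 no longer passed (-0.10, edgeR adjusted p = 0.13). Without control 2 the adjusted p was 0.061 for Cnga4 and 0.10 for Ano2.

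**Figure D5:**
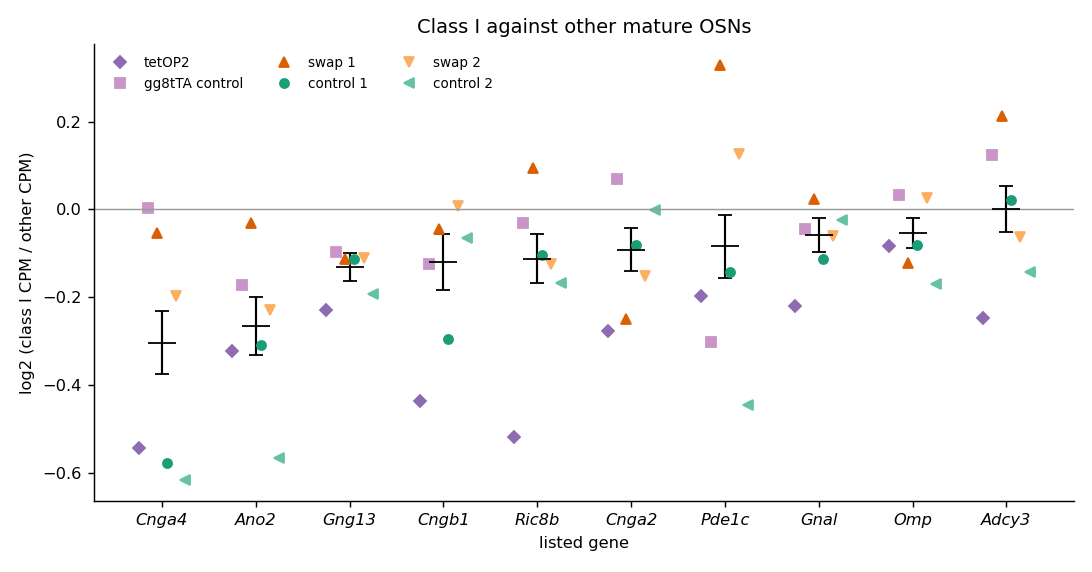
Log2 of class I over other mature OSN CPM for each listed gene, with 1 point per library and a black bar for the edgeR estimate ± SE, 6 libraries. The points for Ano2 and Gng13 all lie below 0, those of Cnga4 spread from -0.62 to 0.00, and for Pde1c the 2 swap points lie above 0 with the other 4 below.

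Of the 23 pathway genes tested between the classes, 1 was called higher in class I and 0 lower, where 1.88% of all genes tested were higher and 1.55% lower. This was Atp2b2, a plasma membrane calcium pump (2.32 ± 0.47, edgeR adjusted p = 0.0010), which rests on 0 to 16 class I UMIs in a library. Passing the adjusted p alone were 5 genes, all higher in class I, where 3.6% of all genes passed as higher, and the 4 besides Atp2b2 are named after their values were seen. Slc12a2, the chloride importer NKCC1 that loads OSNs with the chloride Ano2 releases, had 152 CPM in class I against 111 in tetOP2, 162 against 125 in gg8tTA control, 309 against 235 in swap 1, 374 against 272 in control 1, 602 against 473 in swap 2 and 603 against 403 in control 2. It was higher in 6 of 6 libraries, by 0.45 ± 0.05 (edgeR adjusted p = 1.6e-07), and by 0.20 ± 0.05 against other OSNs with Nqo1 (edgeR adjusted p = 0.019). Slc8a1 was higher by 0.32 ± 0.08, Arrb2, a β-arrestin, by 0.31 ± 0.09, and Calm2 by 0.24 ± 0.04. Slc8a1 did not pass without swap 1 (0.20, edgeR adjusted p = 0.10), and Calm2 did not pass against other OSNs with Nqo1 (0.07, edgeR adjusted p = 0.43). Arrb2 passed without control 1 but not without any other single library, with edgeR adjusted p of 0.072 to 0.13.

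The study's main contrast, swap against control, was read for the 10 genes in mature OSNs, with 2 libraries a group. By edgeR's quasi-likelihood test 0 of 10 genes were called, where 0.0161% of 12387 genes were called, and DESeq2 also called 0 of 10. At an unadjusted edgeR p below 0.05 were 0 of 10, where 344 of the 12387 genes were. The log2 differences were all below 0, from -0.27 for Gng13 to -0.01 for Cnga2, beside a median of -0.02 over all genes. The most mature bin held 47.4 and 66.8% of mature OSNs in swap 1 and 2. It held 57.3 and 73.4% in control 1 and 2. The part of maturity in these log2 differences was not tested. Swap and control values overlapped for all 10 genes, while 13.7% of 6346 genes did not overlap. For Gnal the swap libraries had 2073.3 and 2998.8 CPM and the controls 2017.8 and 3418.5 CPM, so the replicates differed more than the groups. The 95% intervals were wide, -0.91 to 0.37 for Gng13 and -1.01 to 0.77 for Gnal, and both included 0. Ano2 had the values closest together, 199.6 and 209.2 against 203.2 and 224.5 CPM, with an interval of -0.57 to 0.37. The second library was higher in both groups for 7 of the 10 genes, and the share of all genes that did so was not counted. In both groups the second library also held more of the most mature OSNs.

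Late immature OSNs gave 0 of 10 called between swap and control, where 0.212% of 10834 genes were called, and DESeq2 called 0 of 10 too. At an unadjusted edgeR p below 0.05 were 0 of 10, where 168 of the 10834 genes were. All 10 differences were again below 0, from -0.43 to -0.12, beside a median of 0.0049 over all genes. Gng13 had 2883 and 2854 CPM in the swap libraries and 4116 and 3503 CPM in the controls, at -0.43 with a 95% interval of -0.96 to 0.11. Gng13, Cnga2, Ric8b and Pde1c did not overlap, 4 of 10 genes, all lower in swap, where 16.4% of 6569 genes did not overlap. The change from late to mature did not differ detectably between swap and control: the interaction called 0 of 12403 genes by edgeR. At an unadjusted p below 0.05 were 344, of which 0 were in the list, and DESeq2 was not run on it. On simulated counts this interaction test recovered 13 of 50 genes changed 2-fold. Its 95% intervals were wide, -1.06 to 1.06 for Adcy3 and -1.26 to 1.53 for Cnga4.

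The class I difference itself was compared between swap and control by the interaction of class and genotype. None of the 10 genes was called by edgeR, where 0.353% of 10762 genes were called. At an unadjusted p below 0.05 were 3 of the 10, where 674 of the 10762 genes were. Pde1c passed the adjusted p alone, as 0.465% of genes did, with an interaction of 0.52 ± 0.11 (edgeR adjusted p = 0.022). Class I cells had 394.3 CPM of Pde1c against 313.8 in the other OSNs of swap 1 and 319.0 against 292.5 in swap 2, but 254.9 against 281.4 in control 1 and 293.3 against 399.6 in control 2. The direction was opposite in the 2 genotypes, with class I higher in both swap libraries and lower in both controls. In the gg8-tTA pair class I was lower too, at 236.2 against 270.7 CPM in tetOP2 and 198.6 against 245.0 CPM in gg8tTA control.

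The Pde1c interaction moved with single libraries and with the cells compared. It was 0.33 without control 2 (edgeR adjusted p = 0.64), 0.42 without swap 1 (0.18), 0.65 without swap 2 (0.11) and 0.68 without control 1 (0.00032), alternatives chosen after seeing the data. Against other OSNs with Nqo1 it was 0.36 (edgeR adjusted p = 0.45), and in the most mature OSNs 0.41 (edgeR adjusted p = 0.96). In control 2 the other OSNs had 399.6 CPM of Pde1c in all and 293.0 CPM in those with Nqo1. Class I cells with Nqo1 were 77.0 to 85.5% in the swap libraries and 89.2 to 93.0% in the controls, and the part of this in the Pde1c difference was not tested. Cnga4 had an interaction of 0.46 ± 0.12 (edgeR adjusted p = 0.085).

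In tetOP2 against gg8tTA control, with 1 library each, no test was possible. The mature OSN level in tetOP2 was 1.21 times that in gg8tTA control for Ric8b and for Pde1c, 1.16 times for Gng13 and 1.12 times for Omp, with exact Poisson 95% intervals that do not overlap. For the other 6 genes the ratio was 0.96 to 1.08 and the intervals overlap. These intervals cover counting error within the libraries, not the spread between mice. The most mature bin held 60.8% of mature OSNs in tetOP2 and 50.8% in gg8tTA control. The part of maturity in these ratios was not tested.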

How the data were processed

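Main olfactory epithelium cells of 6 libraries were measured by droplet 3′ single-cell RNA-seq on the 10X Chromium. Per the study's methods the authors aligned reads with Cell Ranger, introns included, and the submitters' processing notes give build mm10. The authors deposited raw UMI counts per gene and cell for each library. The series text speaks of sorted cells and the methods describe no sort for these libraries. Part of the genotype label and the values of 1 pathway gene are not reported here.

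Barcodes under 1000 UMIs or 500 genes were dropped, and the highest doublet scores (simulated pairs, 30 neighbours, 0.8% per 1000 cells; 53 to 207 cells a library) were removed. Cells were gated by marker genes outside the 10 genes, except in the alternative gate on Omp. The scoring rule of the gates was set after marker levels were seen. The 10 genes, the pathway list and the markers were chosen with earlier results of these data known. Named pathway genes were up to 8 called genes by smallest adjusted p in each comparison. Genes of like pattern were the 10 with the best correlation among those of at least 20 CPM in some type.

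UMIs were summed per library and stage and tested with edgeR 4.0.16 (quasi-likelihood, TMM, low counts filtered) in R 4.3.3, with library as a block where stages or classes of each library were compared. Olfr genes were left out of the class test and of the totals behind the class CPM. Calls had to pass a Benjamini-Hochberg threshold of 0.05 and a change of more than 0.58 on the log2 scale. On simulated counts with changes of 2- to 16-fold the test recovered 200 of 200 changed genes between mature and late OSNs. It recovered 194 in the class test, 185 between swap and control mature OSNs and 179 between late ones. In the class interaction it recovered 145, and in that of stage and genotype 157. Of 50 genes changed 2-fold it recovered 45, 36, 29, 11 and 13 in the same order. False calls were 2 to 16 a comparison. Smaller changes were not simulated. Alternatives were DESeq2 1.42.0, other size factors, no filter, deeper cells, doublets kept, an Omp gate, library subsets, each library left out, a replicate block, and added ones named as such. Samples were grouped by their labels, and sums were made with Python 3.11.15 and numpy 2.4.6. Depth differed by library, so shares of cells were compared at 3000 UMIs, and intervals cover counting error only.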

Additional observations from a re-analysis of the deposited data

Results flagged for a closer look

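In control 1 the log2 ratio of Ric8b between late and early immature OSNs was 1.70 and stood apart from the other 5 libraries. Its gap to the nearest value was 0.803 of the whole range, above the critical value of 0.625 for 6 values. Of 30 groups of 6 values examined this was the only one that stood apart, and chance gives about 1 in 20. Ric8b was called higher in late OSNs in all 6 libraries' fit and without each library.

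The class I difference in Pde1c differed between swap and control by 0.52 on the log2 scale in the interaction test (edgeR adjusted p = 0.022), with class I higher in both swap libraries and lower in both controls. It did not pass the fold threshold, and it did not pass the adjusted p against other OSNs with Nqo1 or in the most mature OSNs. Without single libraries, which leaves 1 library in a group, it ranged from 0.33 to 0.68.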

How the results depend on the processing

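Between mature and late immature OSNs all values kept their direction and side of the thresholds. Between late and early OSNs only Pde1c lost its call, at 0.57 without gg8tTA control, 0.56 without swap 1 and 0.53 with swap and control libraries only. Between the classes 387 genes were called, and 215 against other OSNs with Nqo1 only, which are fewer cells; 0 listed genes were called under each alternative. DESeq2 gave an adjusted p of 0.050 for Ano2 and 0.045 for Cnga4, and edgeR one of 0.060 for Gng13 with the Omp gate and 0.29 with control and gg8tTA control libraries only. Without the filter on low counts the median log2 difference of all genes moved by -0.11, and Cnga4 at -0.41, Ano2 at -0.37 and Adcy3 at -0.0986 are read against that. Adcy3 was at -0.0220 in cells of at least 3000 UMIs, at -0.0360 with a top receptor of at least 3 UMIs and at -0.0634 to 0.0335 without single libraries. Pde1c was at 0.124 against other OSNs with Nqo1 and at -0.201 to 0.00678 without single libraries, and Cnga2 at 0.00643 in the control and gg8tTA control libraries only.

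Swap against control called few genes, and their number moved with the setting. In mature OSNs 2 genes were called, 192 by DESeq2, 77 with no filter, 182 to 292 without single libraries, 0 with the Omp gate, 0 with the replicate block and 70 in the most mature OSNs. In late OSNs 23 were called, 52 by DESeq2, 51 with no filter, 80 to 140 without single libraries and 103 with the replicate block. In the class interaction 38 were called, 9 with Nqo1, 1 in the most mature OSNs and 7 to 73 without single libraries, where 1 listed gene, Pde1c, was called without control 1. The cause of these shifts was not tested.

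Directions of listed genes that were not called also turned. For swap against control in mature OSNs the values without single libraries were -0.433 to 0.249 for Gnal, -0.444 to 0.140 for Adcy3, -0.244 to 0.190 for Cnga2, -0.481 to 0.104 for Cngb1, -0.553 to 0.180 for Ric8b, -0.332 to 0.0483 for Pde1c and -0.301 to 0.315 for Omp. In the most mature OSNs they were 0.0360 for Cnga2, 9.34e-05 for Cnga4 and 0.0350 for Omp. In late OSNs they were, without single libraries, -0.542 to 0.0127 for Gnal, -0.321 to 0.00740 for Adcy3, -1.01 to 0.441 for Cnga4, -0.530 to 0.0286 for Ano2 and -0.393 to 0.0862 for Omp. In the class interaction they were -0.00353 to 0.106 for Gnal, -0.0276 to 0.0976 for Gng13 and -0.00740 to 0.293 for Adcy3, with Ric8b at -0.00299 against OSNs with Nqo1 and Adcy3 at -0.0249 in the most mature OSNs.

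Same-numbered swap and control libraries deviated together with correlations of 0.28 in mature and 0.38 in late OSNs, but 2 pairs do not show that the numbers pair them. With the replicate block 0 listed genes were called, and Omp was at 0.00413 in mature OSNs. Depth limits Atp2b2 and Gnai2.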

Other observations

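The genes called in the class interaction between swap and control included Gnai2, a Gαi subunit of the pathway list. Class I cells held 0 UMIs of Gnai2 in both swap libraries, 21 in control 1 and 1 in control 2, so the difference rests mainly on control 1, and the fitted value depends on the prior count. Pde1c had lower CPM in other mature OSNs with Nqo1 than in all other mature OSNs in each of the 6 libraries, for example 293.0 against 399.6 CPM in control 2 and 241.0 against 281.4 CPM in control 1. The difference was seen after the values were known and was not tested.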
